A study of Glycine max with 12 samples.

Results

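Short unstranded intergenic lncRNAs of young soybean pods were described here. They are the transcripts of the deposited lncRNA table that lie between annotated genes (class code u), have 1 exon, are listed without a strand, are shorter than 1000 bases, lie on chromosomes 1 to 20 and have a mean under 10 FPKM over the 12 libraries. FPKM counts sequenced fragments scaled by transcript length and library size. The members were thus chosen by structure and selected on a low mean level. The rule uses no group difference, but earlier results of these data were known when the members were chosen. This choice gave 3019 of the 11072 lncRNAs listed (27.3%). Of 4381 intergenic lncRNAs, 3725 had 1 exon, 3373 of these had no strand, 3305 lay on the numbered chromosomes and 3046 were shorter than 1000 bases. The limit on the mean FPKM removed the last 27.

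The pods came from the low-linolenic acid mutant MT72 and from the wild type JN18, taken 30 and 40 d after flowering. MT72 is a later-generation line from soybean exposed to ethyl methanesulfonate, a chemical mutagen, and the line exposed is not named in the labels or methods. JN18 is a high-oil variety. With 3 biological replicates per group, JN_30 is the libraries JN_7, JN_8 and JN_9, JN_40 is JN_4, JN_5 and JN_6, MT_30 is MT_7, MT_8 and MT_9, and MT_40 is MT_4, MT_5 and MT_6. Total RNA was depleted of ribosomal RNA and prepared with a kit that keeps the strand. Whole pods hold pod wall and seed together, so fewer cells of a type and less RNA per cell cannot be told apart. The table lists lncRNAs and no mRNAs, so the tissue was not checked against marker genes.

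A lncRNA is a transcript longer than 200 bases with no recognized protein-coding potential. In plants, intergenic lncRNAs are known that guide chromatin modifiers to a locus, that act as decoys for miRNAs or that are precursors of small RNAs. A transcript assembler such as StringTie takes the strand from spliced reads or from a stated library type, so a transcript of 1 exon can be left without a strand. Whether such a transcript runs in the direction of a neighbouring gene or against it can then not be told apart. Soybean pods of this age are filling their seeds, with storage oil and protein being laid down.

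The members were short and scarce. Their lengths ran from 201 to 997 bases, with a median of 278 and quartiles of 228 and 397, and the median over all lncRNAs of the table was 338. The median of their mean FPKM was 0.172, with quartiles of 0.0314 and 0.461, and the median over the table was 0.383. A mean above 1 FPKM was reached by 223 members (7.39%), against 17.6% of the table. The length and level limits were used to choose the members, so these values are a description. At the level limit stood MSTRG.19864.1 and MSTRG.45759.1 with means of 9.32 and 9.31 FPKM on the inside, and MSTRG.3237.1 and MSTRG.51360.1 with 10.8 and 11.9 on the outside. At the length limit, MSTRG.348.1 and MSTRG.18168.1 had 997 and 993 bases, and the first rows beyond it were MSTRG.43510.1 with 1006 and MSTRG.24778.1 with 1011.

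Most members rested on few reads. Estimated from the deposited coverage, the median member had 3.92 reads of 150 bases in a library (quartiles 0.634 and 12.2), against 10.6 for the median lncRNA of the table. A member of median length had 18.6 to 22.8 estimated reads at 1 FPKM, depending on the library. Long unstranded intergenic lncRNAs, the 253 transcripts of the same kind with 1000 bases or more, had a median of 65.1 estimated reads and a median mean level of 0.576 FPKM. The 639 spliced intergenic lncRNAs had a median of 14.6 estimated reads and 0.395 FPKM. No comparison of levels between these classes was tested, since length and level chose the members.

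The longer members were listed in more libraries. Of 767 members with 201 to 228 bases, 57.2% exceeded 0.1 FPKM in at least 3 libraries. The shares were 58.2% of those with 229 to 278 bases, 70.0% of those with 279 to 397 and 84.4% of those with 398 to 997. Members at 0 in all libraries made up 15.5% of the shortest of these classes and 2.39% of the longest. The coding scores of the members were low by the authors' own selection. Their median CPC score, in which higher values stand for coding potential, was 0.0162 and their highest 0.432. In the CNCI score 1512 members (50.1%) sat at -0.0004096, the highest value in the table, as did 48.0% of all lncRNAs listed.

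In a library, between 56.0% and 65.4% of the members were listed above 0 FPKM. The numbers were 1899, 1973 and 1892 in MT_30 and 1901, 1896 and 1961 in MT_40. They were 1830, 1891 and 1830 in JN_40. In JN_30 they were 1963 in JN_7, 1902 in JN_8 and 1691 in JN_9. JN_9 was the lowest library, also over the whole table (8225 lncRNAs above 0, against 8712 to 8998 in the others), although its 12.2 Gb of aligned bases were second only to JN_4 in a range of 10.0 to 12.3 Gb. It was also the library with the highest value for 302 of 2035 members tested (14.8%), the largest such number of the 12 libraries. Counts without it that moved by more than 1.5 times are given beside the results below, and what set it apart was not tested.

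**Figure D1:**
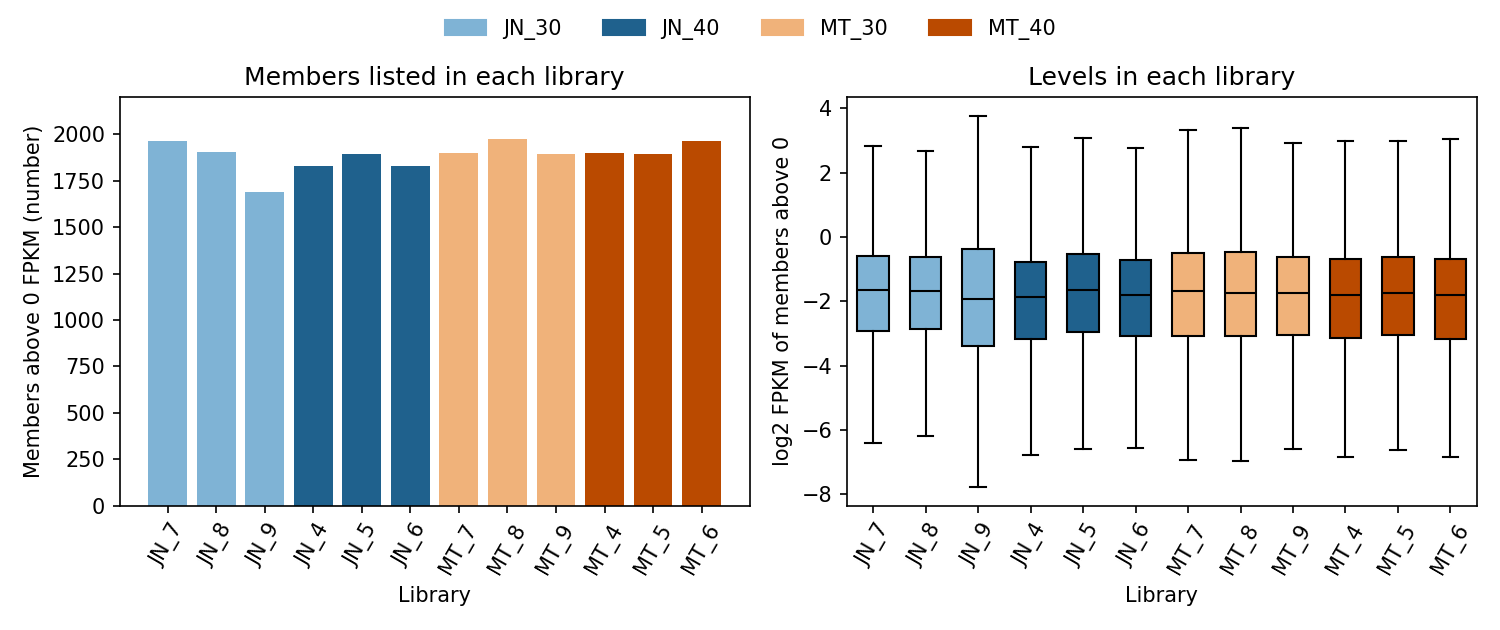
Number of members above 0 FPKM (left) and log2 FPKM of those members (right, box from quartile to quartile with the median, whiskers to 1.5 times the box) in each library, coloured by group. JN_9 lists 1691 members and has the widest box, while the other libraries list 1830 to 1973.

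Over all 12 libraries, 836 members (27.7%) were above 0 in each and 315 (10.4%) were at 0 in each. For the whole table these shares were 53.8% and 4.44%. A further 187 members were above 0 in a lone library. In 1438 members the level passed 0.1 FPKM in at least 1 library of all 4 groups. The 2035 members above 0.1 FPKM in at least 3 libraries were tested in the comparisons below, and the other 984 were not. Of the 2035, 12 passed this filter through 1 group alone. A member that passed only through the group or side where it was high had to differ, so its values are given below without a p.

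The most abundant members differed in how steady they were. MSTRG.19864.1 (chromosome 16, 31509099 to 31509396) had 4.33, 6.79 and 11.03 FPKM in JN_30, 6.91, 8.95 and 8.26 in JN_40, 9.94, 9.46 and 8.30 in MT_30, and 14.3, 10.7 and 12.9 in MT_40. The MT_40 libraries were the highest on average, and the JN_30 libraries had the widest spread. MSTRG.45759.1 (chromosome 7, 16735385 to 16735792) had 8.98 to 19.2 FPKM in the 6 libraries of MT72 and 1.63 to 9.20 in those of JN18. The materials overlapped at their edges, and the averaged difference of 1.48 on the log2 scale (standard error 0.41) had an adjusted p of 0.137 from limma. MSTRG.31839.1 on chromosome 20 owed its mean of 8.75 FPKM in part to library JN_5, at 24.3 FPKM against 3.81 to 12.2 in the others.

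The steadiest members with a mean of at least 1 FPKM were MSTRG.26695.1, MSTRG.36345.1 and MSTRG.24777.1. MSTRG.26695.1 (chromosome 19, 31679152 to 31680026) lay between 0.728 and 1.33 FPKM in all libraries, a coefficient of variation of 0.21. Over the 4 group comparisons its log2 fold changes ran from 0.01 to 0.34, each with a standard error of 0.33. The 3 transcripts had 49.9 to 67.3 estimated reads per library on average.

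The members lay on all 20 chromosomes, and many of them lay close to another member. Chromosome 11 held the fewest with 79 and chromosome 18 the most with 222, with a median of 150. They were 19.5% of all lncRNAs on chromosome 11 and 37.1% on chromosome 3. With gaps of up to 5 kb, 943 members (31.2%) joined into 368 runs, of which 257 were pairs and 18 had 5 or more members. Runs were not counted over all lncRNAs, so whether this is particular to the members was not tested. The positions are those of the deposited table, whose genome build is not stated in the labels or methods.

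Members close together had more alike levels than members far apart. Over the 12 libraries, the median Pearson's r between neighbours on the log2 scale was 0.44 over 172 pairs less than 1 kb apart, and 83.7% of these pairs were above 0. It was 0.33 over 211 pairs at 1 to 5 kb, 0.28 over 103 pairs at 5 to 20 kb, 0.04 over 205 pairs at 20 to 100 kb and 0.03 over 747 pairs farther apart. With the group means removed the medians were 0.34, 0.22, 0.25, 0.09 and 0.03. Neighbours share the libraries and their depth at every distance, and a member can share a pair with the member before it and after it, so these values are a description. The same was not computed over all lncRNAs.

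**Figure D2:**
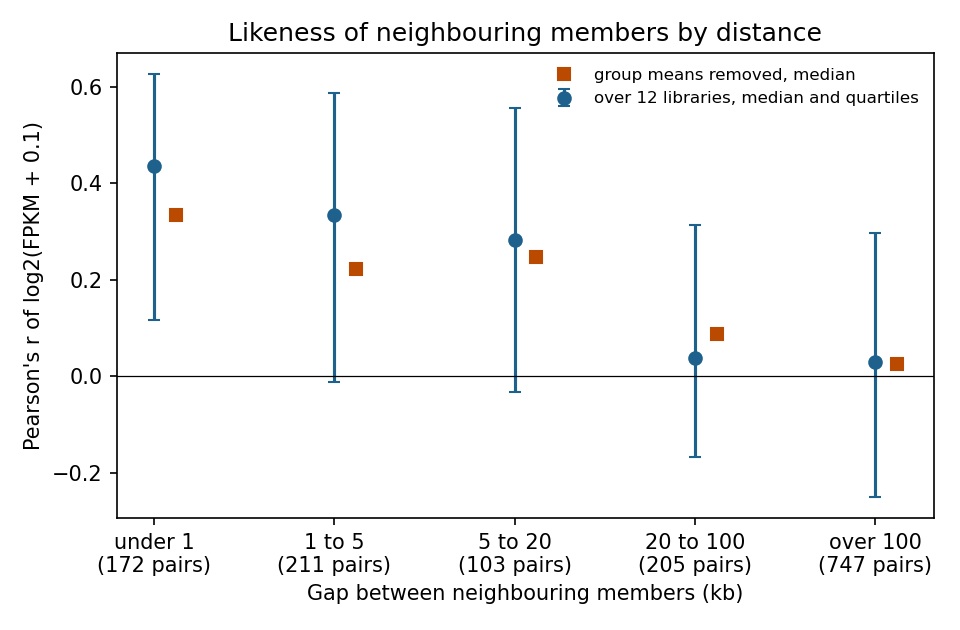
Pearson's r between the levels, log2(FPKM + 0.1), of neighbouring members over the 12 libraries, by the gap between them in kb. Circles and bars are the median and quartiles of the pairs, squares the median with the group means removed. The medians fall from 0.44 under 1 kb to 0.03 over 100 kb.

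The longest run held 12 members within 18.5 kb of chromosome 18 (17177364 to 17195895), from MSTRG.24270.1 to MSTRG.24258.1. They covered 24.1% of that stretch. Their mean levels ran from 0.0765 to 0.217 FPKM and all of them passed the filter on low levels. Added up over the run, the levels in JN_30 were 1.59, 1.64 and 0.852 FPKM, in JN_40 1.67, 2.23 and 1.49, in MT_30 1.13, 1.30 and 1.53, and in MT_40 3.005, 2.12 and 1.38. The groups overlapped, and 0 of the 12 members were called in any comparison.

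The next run, 11 members in 19.4 kb of chromosome 12 (21977700 to 21997114, from MSTRG.8990.1 to MSTRG.8978.1), stood higher at 40 d. The summed level was 1.88, 2.92 and 0.995 FPKM in JN_30 and 2.63, 3.48 and 4.25 in JN_40, and 0.715, 1.31 and 1.24 in MT_30 and 3.97, 2.44 and 2.15 in MT_40. In MT72 the stages did not overlap, while in JN18 library JN_8 at 30 d lay above JN_4 at 40 d. All 11 members had a positive fitted difference in JN18 and 10 had one in MT72. By limma 1 of the 11 was called, MSTRG.8975.1, with a mean of 0.0699 FPKM in JN_30, 0.348 in JN_40, 0.0267 in MT_30 and 0.417 in MT_40, which rose by 1.64 on the log2 scale from 30 to 40 d averaged over both materials (adjusted p = 0.0331). It was named after its values were seen. No test was made for the run as a whole.

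**Figure D3:**
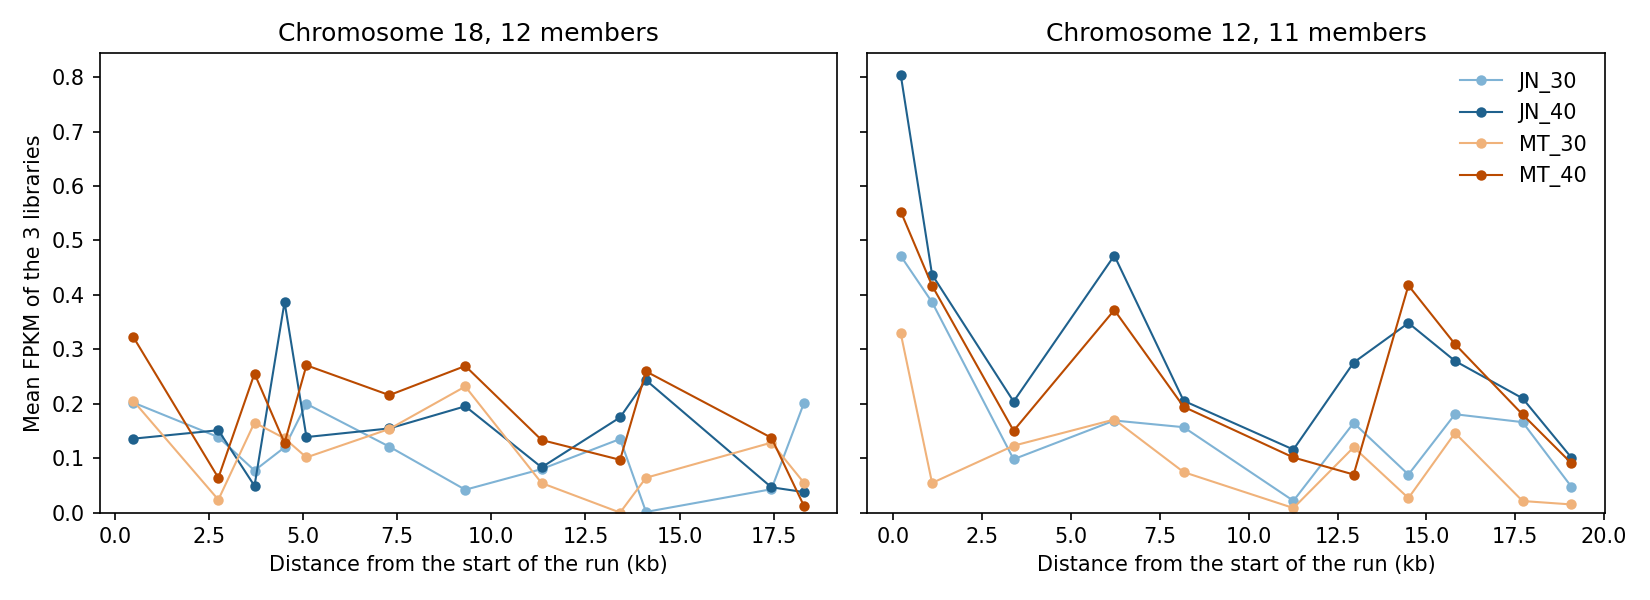
Mean FPKM of the 3 libraries of each group for every member of the longest runs, on chromosome 18 (12 members) and chromosome 12 (11 members), against the distance in kb from the start of the run. On chromosome 12 the lines of JN_40 and MT_40 lie above those of JN_30 and MT_30 at most members, and on chromosome 18 the lines cross.

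Few members lay near a gene that the table names. Within 10 kb, 322 of the 3019 had another lncRNA of the table that carries a host gene name. The median distance to the nearest such transcript was 70.9 kb. From a list of lipid, seed storage protein and lipoxygenase gene symbols, 1 member was found, MSTRG.33759.1 (chromosome 20, 46971886 to 46972531), 1.74 kb from a transcript of PLDZ. Host genes named only by a LOC number could not match the list, and genes without a lncRNA in the table were not seen. How many members lie near such genes is therefore not known, and the search was not made over all lncRNAs. In Arabidopsis such names belong to phospholipase D zeta enzymes, which break down membrane phospholipids. The level of MSTRG.33759.1 lay between 0.155 and 0.352 FPKM in all 12 libraries and did not separate any groups. Its averaged log2 differences by limma were -0.14 between the stages (standard error 0.31, adjusted p = 0.858) and 0.03 between the materials (standard error 0.31, adjusted p = 0.975).

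The materials were compared at each stage and averaged over both stages, to find lncRNAs whose level differs between the low-linolenic acid mutant and the wild type. Members that differed were mostly higher in MT72. Averaged over the stages, 31 members were higher in MT72 and 5 lower, called by limma on log2 of FPKM plus 0.1 where the adjusted p was 0.05 or less. The 36 are 1.77% of the members tested. Of all 9142 lncRNAs tested, 1.01% were called, 0.788% as higher and 0.219% as lower. Of the 36 called, 4 passed the filter only through the side where they were high (1 higher and 3 lower in MT72). The 31 lay on 17 chromosomes, with log2 fold changes of 0.98 to 5.95. In 23 of the 31 every library of MT72 exceeded every library of JN18. Called or not, the materials did not overlap in 2.01% of the members tested and in 1.35% of all lncRNAs tested. Over all members tested, the median difference was 0.06 on the log2 scale, and it was -0.02 over all lncRNAs tested.

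MSTRG.33279.1 (chromosome 20, 42576534 to 42576781) was nearly confined to MT72 in these libraries. It had 10.0, 13.7 and 18.4 FPKM in MT_30 and 6.17, 8.74 and 7.19 in MT_40. In JN18 it was listed at 0 in 5 of the 6 libraries and at 1.76 in JN_5. All libraries of MT72 were above all of JN18. The averaged log2 fold change was 5.95 (standard error 0.59, adjusted p = 0.000214 by limma), and the call was kept in all 20 alternatives run. With 5 libraries at 0 its size depended on the value added before the logarithm and ran from 3.22 to 8.72 over these alternatives.

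MSTRG.39554.1 (chromosome 5, 8369252 to 8369462) had 1.91, 3.60 and 4.41 FPKM in MT_30 and 2.32, 1.80 and 2.52 in MT_40. JN_30 had 0.364, 0.417 and 0.265, and JN_40 had 0.139, 0 and 0. The materials did not overlap at either stage. By limma it was higher in MT72 by 2.86 on the log2 scale at 30 d (standard error 0.44, adjusted p = 0.00686) and by 4.10 at 40 d (standard error 0.44, adjusted p = 0.00177). The call at 40 d was kept in all 21 alternatives run.

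MSTRG.36128.1 and MSTRG.28224.1 combined high levels with a wide spread in MT_30. MSTRG.36128.1 (chromosome 3, 44170885 to 44171235) had 9.44, 23.5 and 41.3 FPKM in MT_30 and 4.79, 8.23 and 3.29 in MT_40, while the libraries of JN18 lay between 0 and 1.12. MSTRG.28224.1 (chromosome 19, 48941217 to 48941657) had 10.1, 24.0 and 31.5 FPKM in MT_30 and 3.94, 7.66 and 7.11 in MT_40, with 0.211 to 3.19 in JN18. In both, MT_9 was the highest library and no library of MT72 fell to the level of JN18. The averaged log2 fold changes by limma were 4.84 for MSTRG.36128.1 (standard error 0.60, adjusted p = 0.00123) and 3.48 for MSTRG.28224.1 (standard error 0.48, adjusted p = 0.00261).

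Library MT_9 was the highest of the 12 libraries for 22 of the 31 members called higher in MT72, and for 191 of the 2035 members tested. Without it the averaged comparison called 24 members in place of 36, and 19 without MT_8, 20 without MT_5 and 23 without MT_6. MSTRG.9226.1 (chromosome 12, 32775300 to 32775514) was among those in which MT_9 was highest, but its libraries were close together, with 4.93, 7.15 and 7.45 FPKM in MT_30 and 2.79, 2.79 and 3.43 in MT_40. Its levels in JN18 were 0.301, 1.21 and 0.758 at 30 d and 0.346, 0.437 and 0.561 at 40 d, all below those of MT72. The averaged log2 fold change was 2.80 (standard error 0.28, adjusted p = 0.000214 by limma).

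**Figure D4:**
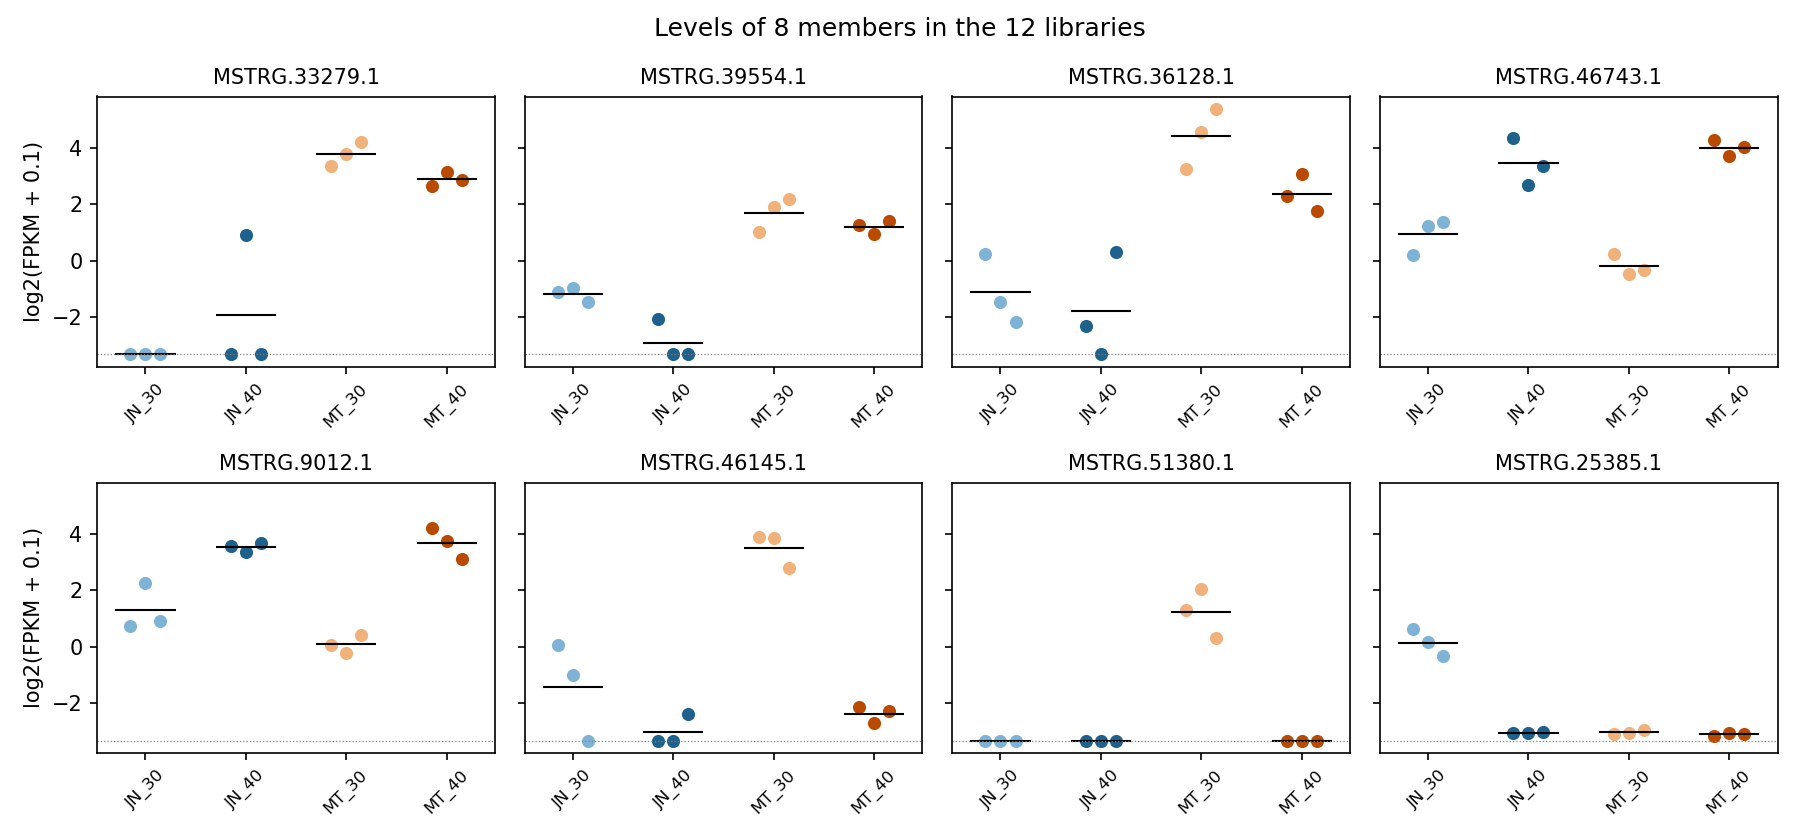
Levels of 8 members on a log2 scale of FPKM plus 0.1. Points are single libraries, black lines the means of the 3 libraries on that scale, and the dotted line marks 0 FPKM. MSTRG.33279.1, MSTRG.39554.1 and MSTRG.36128.1 are higher in MT72, MSTRG.46743.1 and MSTRG.9012.1 at 40 d, MSTRG.46145.1 and MSTRG.51380.1 in MT_30, and MSTRG.25385.1 in JN_30.

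At 30 d alone, 32 members were higher in MT_30 than in JN_30 and 2 were lower, as called by limma. They are 1.67% of the members tested, against 0.886% of all lncRNAs tested, where 0.733% were higher and 0.153% lower. Of the 34, 4 passed the filter through the higher group alone. All 34 had groups that did not overlap, which also held, called or not, for 18.3% of the members and 17.7% of all lncRNAs tested. At 40 d, 3 members were higher in MT_40 than in JN_40 and 1 was lower, which is 0.197% of the members and 0.153% of all lncRNAs tested (0.109% higher and 0.0438% lower). Of the 32 members higher at 30 d, 30 had a fitted difference above 0 at 40 d, and 18 of them a log2 fold change above 1. Over all lncRNAs these numbers were 61 and 37 of 67. The 30 and the 61 include MSTRG.51380.1, which was at 0 in all libraries at 40 d, so its difference there is rounding. Of the 32, 3 passed the filter through MT_30 alone. The libraries at 40 d do not enter the difference at 30 d, but they share its filter, spread and adjusted p.

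These counts moved with single libraries. At 30 d the count of 34 was 7 without MT_9, 9 without MT_8, 20 without MT_7, 22 without JN_9 and 55 without JN_7. At 40 d the count of 4 was 10 without JN_9, 1 without MT_4 or MT_5, and 2 without MT_6, MT_8 or JN_4.

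The 3 members higher in MT_40 were MSTRG.33279.1, MSTRG.39554.1 and MSTRG.9226.1, and all of them were also called at 30 d. For MSTRG.33279.1 the log2 fold change at 40 d was 4.80 (standard error 0.84, adjusted p = 0.0456 by limma), a call kept in 5 of 21 alternatives, over which the adjusted p reached 0.222. Among fits that left out 1 library, it was kept only without JN_5 or JN_9. For MSTRG.9226.1 it was 2.51 (standard error 0.40, adjusted p = 0.0246 by limma), kept in 12 of 21 with an adjusted p of up to 0.163, and lost without MT_8 or any library of MT_40 or JN_40. The lower member was MSTRG.915.1 (chromosome 1, 29179228 to 29179450), which was at 0.406, 0.372 and 0.679 FPKM in JN_40 and listed at 0 in the other 9 libraries. It passed the filter through JN_40 alone, so neither a p nor a fold is given. The call was lost without any library of MT_40, and without any library of JN_40 the member no longer passed the filter. It rested on 2.0 estimated reads per library on average.

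Few members were higher in JN18. MSTRG.46243.1 (chromosome 7, 35880791 to 35881734) had 4.81, 3.74 and 4.03 FPKM in JN_30 and 1.38, 12.5 and 0.735 in JN_40. In MT72 its libraries lay between 0.112 and 0.569. The materials did not overlap, although JN_5 was far above JN_4 and JN_6. The averaged difference was -3.0 in log2 units (standard error 0.54, adjusted p = 0.018 by limma), a call that was lost without MT_5 (adjusted p = 0.0561) and without MT_9 (adjusted p = 0.0579), and also with a pseudocount of 1 and by voom on estimated reads.

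MSTRG.7111.1 (chromosome 11, 29409968 to 29410362) had 0.408, 0.238 and 1.34 FPKM in JN_30 and 0.349, 0.420 and 0.561 in JN_40, and at most 0.0754 in MT72. All libraries of JN18 were above all of MT72. The averaged log2 fold change was -2.17 (standard error 0.40). It passed the filter through JN18 alone.

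The stages were compared to find lncRNAs that change as the pod matures. Averaged over both materials, 52 members rose from 30 to 40 d and 41 fell, as called by limma. They are 4.57% of the members tested, against 4.05% of all lncRNAs tested, of which 2.56% rose and 1.49% fell. Of the 93, 23 passed the filter only through the stage where they were high, 9 at 40 d and 14 at 30 d. The members that rose lay on all 20 chromosomes and those that fell on 18. Without overlap between the 6 libraries of each stage were 25 of the 52 and 8 of the 41. Called or not, the stages did not overlap in 2.31% of the members and 2.25% of all lncRNAs tested. The median difference was -0.11 on the log2 scale over the members tested and -0.10 over all lncRNAs tested.

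MSTRG.46743.1 (chromosome 7, 42132901 to 42133569) rose in both materials. It had 1.05, 2.22 and 2.47 FPKM in JN_30 and 20.2, 6.27 and 10.2 in JN_40, and 1.08, 0.625 and 0.686 in MT_30 and 19.1, 12.8 and 16.2 in MT_40. Every library at 40 d exceeded every library at 30 d. By limma the log2 fold change was 4.18 in MT72 (standard error 0.43, adjusted p = 0.000446) and 2.54 in JN18 (standard error 0.43, adjusted p = 0.0313). The difference between these changes was 1.65 (standard error 0.61) with an adjusted p of 0.675. The call in MT72 was kept in all 20 alternatives run, while that in JN18 was lost in 13 of 20 (adjusted p up to 0.292), among them those without MT_4, MT_5, MT_7, MT_8, MT_9, JN_4, JN_6 or JN_7.

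MSTRG.9012.1 (chromosome 12, 24118824 to 24119216) had a like profile, with a Pearson's r of 0.95 to MSTRG.46743.1 over the 12 libraries. Both were named for their rise between the stages in the same libraries, so this r is a description. MSTRG.9012.1 had 1.55, 4.64 and 1.79 FPKM in JN_30, 11.8, 10.2 and 12.6 in JN_40, 0.951, 0.768 and 1.25 in MT_30, and 18.2, 13.3 and 8.48 in MT_40. The stages did not overlap. The averaged log2 fold change was 2.91 (standard error 0.28, adjusted p = 0.000295 by limma), and the call was kept in all 19 alternatives run, as was that of MSTRG.46743.1.

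MSTRG.16315.1 (chromosome 15, 5196661 to 5197593) was nearly off at 30 d in both materials. It had 0.0594, 0.128 and 0.0525 FPKM in JN_30 and 0.0402, 0.164 and 0.0640 in MT_30. At 40 d it had 1.14, 0.981 and 0.849 in JN_40 and 1.55, 0.967 and 1.32 in MT_40. The groups at 40 d lay far above those at 30 d and overlapped each other. The log2 fold changes by limma were 2.61 in JN18 (standard error 0.42, adjusted p = 0.0282) and 2.89 in MT72 (standard error 0.42, adjusted p = 0.00378). The call in JN18 was lost in 10 of 20 alternatives (adjusted p up to 0.318), among them those without MT_4, MT_9, JN_4, JN_5, JN_6 or JN_7.

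Some members were at or near 0 in MT_30 and above 0 in MT_40. MSTRG.52368.1 (chromosome 9, 41670933 to 41671495) was at 0 in all 3 libraries of MT_30 and at 1.43, 1.48 and 1.495 FPKM in MT_40. In JN18 it had 0, 0.919 and 0.246 at 30 d and 0.963, 1.25 and 1.23 at 40 d. The stages did not overlap in either material, and the averaged log2 fold change was 2.95 (standard error 0.46, adjusted p = 0.00306 by limma).

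MSTRG.1848.1 (chromosome 1, 53158335 to 53159123) was likewise at 0 in MT_30 and at 0.946, 1.08 and 1.91 FPKM in MT_40, an adjusted p of 0.00931 by limma. JN_30 had 0.0348, 0.519 and 0 and JN_40 had 0.956, 0.494 and 1.45, so that JN_8 at 30 d lay above JN_5 at 40 d. MSTRG.13995.1 (chromosome 14, 4056712 to 4057563) was at 0.0444, 0 and 0 FPKM in MT_30 and at 0.246, 3.06 and 5.33 in MT_40. The MT_40 libraries of this member spread widely, and its call within MT72 (log2 fold change 4.0, standard error 0.83, adjusted p = 0.0241 by limma) was lost without MT_5, MT_6 or any library of MT_30, with an adjusted p of up to 0.0997 over the alternatives.

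The members that fell with the largest averaged change and no overlap between the stages were at lower levels. MSTRG.4334.1 (chromosome 10, 44041578 to 44042113) had 0.718, 0.155 and 1.51 FPKM in JN_30, 0.356, 0.398 and 0.470 in MT_30, and at most 0.0888 in any library at 40 d. Averaged over the materials its log2 difference was -2.32 (standard error 0.43), and it passed the filter only through libraries at 30 d. MSTRG.3042.1 (chromosome 10, 8891586 to 8891955) had 0.693 to 1.31 FPKM in the 6 libraries at 30 d and 0.0885 to 0.395 at 40 d, and fell by 1.70 (standard error 0.32, adjusted p = 0.00862 by limma). MSTRG.8860.1 on chromosome 12 and MSTRG.24472.1 on chromosome 18 fell by 1.66 and 1.63 (adjusted p = 0.0219 and 0.0292 by limma). Both calls were lost without MT_5, MT_8 or MT_9, and that of MSTRG.24472.1 also without MT_4, MT_6, JN_4, JN_6 or JN_7, with an adjusted p of up to 0.0826 over the alternatives.

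Between the stages of MT72, 29 members rose and 25 fell in MT_40 versus MT_30, as called by limma. They are 2.65% of the members tested, and 2.5% of all lncRNAs tested were called, 1.59% as higher and 0.919% as lower. Of the 54, 4 that fell passed the filter through MT_30 alone. The libraries of the stages did not overlap in 575 members (28.3%), against 28.6% of all lncRNAs tested. Between the stages of JN18, 5 members rose and 1 fell, 0.295% of the members and 0.197% of all lncRNAs (0.164% higher and 0.0328% lower). Of these 6, 2 passed the filter through 1 group alone. There, 262 members (12.9%) did not overlap, against 13.1% of all lncRNAs. Of the 29 members that rose in MT72, 27 had a positive difference in JN18, and 23 of them a log2 fold change above 1. The libraries of JN18 do not enter the difference within MT72, but they share its filter, spread and adjusted p. Of the 25 that fell, 20 had a negative difference in JN18 and 9 one below -1. Over all lncRNAs, 134 of 145 that rose had a positive difference in JN18 (107 above 1), and 67 of 84 that fell a negative one (26 below -1).

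The counts by stage also moved with single libraries. In JN18 the count of 6 was 0 by limma without JN_4, JN_6 or JN_7, where 210, 265 and 266 members passed the unadjusted thresholds given below. It was 23 without JN_8, 4 without JN_5, and 2 or 3 without MT_4, MT_5, MT_7, MT_8 or MT_9. The balance of rises and falls turned as well, from 29 and 25 in MT72 to 24 and 38 with a pseudocount of 1, 28 and 32 with no filter, 95 and 114 with array weights, 80 and 89 with only these groups in the fit, 10 and 12 without MT_5, 11 and 13 without MT_6, 37 and 48 without JN_7 and 54 and 58 without JN_9. Averaged over the materials, 81 rose and 99 fell without JN_9. In MT72 the count of 54 was between 15 and 24 without MT_4, MT_5, MT_6, MT_7, MT_8 or MT_9 in turn, 85 without JN_7 and 112 without JN_9. The averaged count of 93 was 46 without MT_9, 48 without MT_8, 55 without MT_5, 56 without MT_4, 61 without MT_6 and 180 without JN_9.

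Many more members passed the thresholds of the study when these were applied to limma. They ask for a log2 fold change beyond 1 in either direction and a p, not adjusted, of 0.05 or less. The study used them with edgeR and reported far fewer lncRNAs in each of these comparisons, so the members counted here are not its calls. Between the stages 282 passed in JN18 (13.9% of the members, 10.6% of all lncRNAs tested) and 343 in MT72 (16.9% and 14.2%). Between the materials 323 passed at 30 d (15.9% and 12%) and 178 at 40 d (8.75% and 5.85%). The median standard error of a member in these comparisons was 0.60 on the log2 scale, and 0.57 over all lncRNAs.

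**Figure D5:**
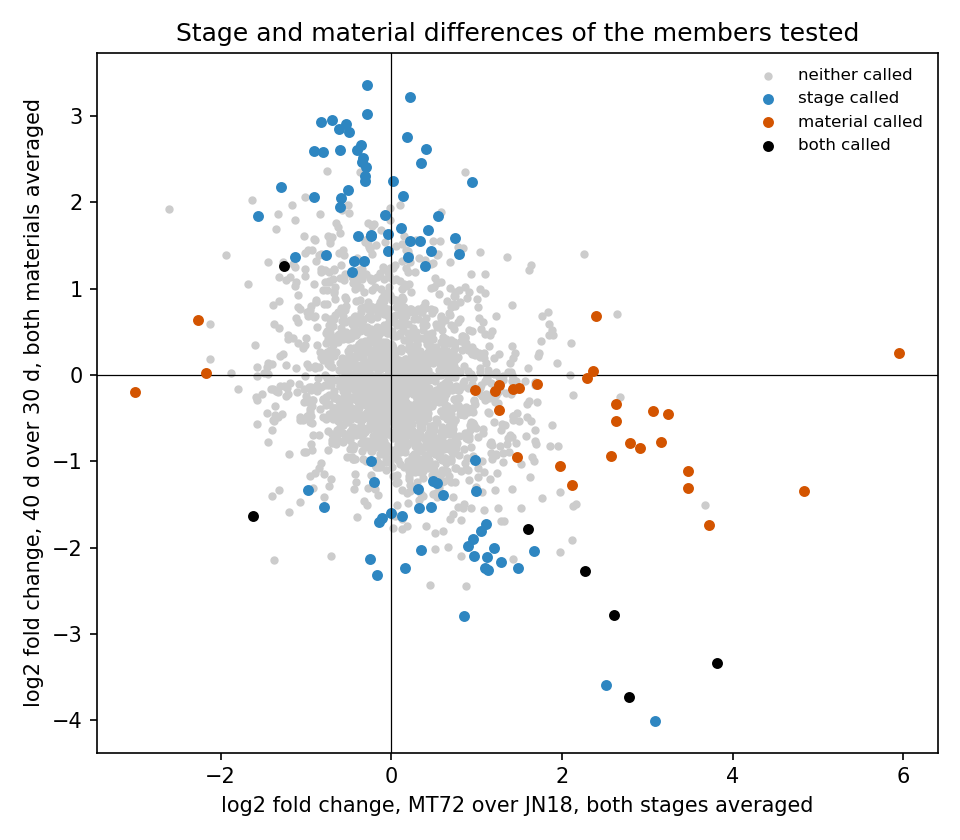
Log2 fold change between the materials (x axis, MT72 over JN18, averaged over both stages) and between the stages (y axis, 40 d over 30 d, averaged over both materials) of the 2035 members tested, on log2 of FPKM plus 0.1. Both axes use the same 12 libraries. Coloured points were called by limma (adjusted p up to 0.05). The members called for material lie mostly to the right, where 31 are higher in MT72 and 5 lower, and those called for stage lie on both sides, 52 higher and 41 lower at 40 d.

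MSTRG.46145.1, MSTRG.26391.1 and MSTRG.43300.1 were highest in MT_30, and none of them was called for a different stage effect between the materials. MSTRG.46145.1 (chromosome 7, 34958175 to 34959096) had 14.5, 14.5 and 6.84 FPKM in MT_30. It had 0.131, 0.0562 and 0.105 in MT_40, 0.953, 0.398 and 0 in JN_30, and 0, 0 and 0.0926 in JN_40. MT_30 did not overlap any other group. By limma the level fell by 5.87 on the log2 scale in MT_40 against MT_30 (standard error 0.71, adjusted p = 0.00143) and was higher by 4.93 in MT_30 than in JN_30 (standard error 0.71, adjusted p = 0.00474). Both differences rest on the same libraries of MT_30 and are not independent. The stage effect of MT72 minus that of JN18 was -4.28 (standard error 1.0) with an adjusted p of 0.387. The difference at 30 d was not called with a pseudocount of 0.01 (adjusted p = 0.0976).

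MSTRG.26391.1 (chromosome 19, 9853139 to 9853506) had a Pearson's r of 0.96 to MSTRG.46145.1 over the 12 libraries. It had 9.98, 10.5 and 6.46 FPKM in MT_30 and 0.0354 to 0.130 in MT_40, while JN_7 in JN_30 reached 3.23 and the other 5 libraries of JN18 had at most 0.116. Within MT72 it fell by 5.71 (standard error 1.0, adjusted p = 0.00981 by limma), a call lost without MT_8 (adjusted p = 0.0519) and with a pseudocount of 0.01 (adjusted p = 0.0735). Its stage effect in MT72 minus that in JN18 was -4.24 (standard error 1.41) with an adjusted p of 0.574 by limma. With MSTRG.46145.1, 72 of 2034 other members had a Pearson's r above 0.8 and lay on 20 chromosomes. For MSTRG.33279.1, MSTRG.28224.1 and MSTRG.46743.1 the same count was 19, 33 and 37. It was not made over all lncRNAs tested. These profiles share the 12 libraries and their depth. MSTRG.46145.1 and MSTRG.26391.1 were both named for their fall within MT72 in these libraries, so the r between them is a description.

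MSTRG.43300.1 (chromosome 6, 18752879 to 18753080) had 8.79, 19.98 and 37.6 FPKM in MT_30 and 0.280, 1.74 and 0.840 in MT_40. In JN18 it had 1.57, 0.121 and 0.553 at 30 d and 0, 0 and 0.131 at 40 d. MT_30 was the highest group, and MT_40 overlapped JN_30 and not JN_40. By limma it was higher by 4.92 in MT_30 than in JN_30 (standard error 0.77, adjusted p = 0.00708) and fell by 4.44 within MT72 (standard error 0.77, adjusted p = 0.00931). The first call was lost without MT_9 (adjusted p = 0.0607), and the second without MT_8 (0.0502) or MT_9 (0.0587). Both were lost with a pseudocount of 0.01 (0.0748 and 0.0693). The 2 calls rest on the same libraries of MT_30 and are not independent. Averaged over the stages it was higher in MT72 by 3.82 (standard error 0.54, adjusted p = 0.00329 by limma). At 40 d alone the difference was 2.72 (standard error 0.77, adjusted p = 0.405 by limma). Its stage effect in MT72 minus that in JN18 was -2.20 (standard error 1.08) with an adjusted p of 0.759 by limma.

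The stage effect was compared between MT72 and JN18 with an interaction contrast. By limma 1 member was called, 0.0491% of the members tested, against 0.0766% of all lncRNAs tested. At the unadjusted thresholds 168 members passed (8.26%), against 6.66% of all lncRNAs tested. It was MSTRG.51380.1 (chromosome 9, 10332679 to 10332882), with 2.38, 4.07 and 1.13 FPKM in MT_7, MT_8 and MT_9. All other 9 libraries were at 0, so that MT_30 stood apart from every group. It had 9.8 estimated reads per library on average. It passed the filter through MT_30 alone and JN18 was at 0 at both stages, so the call restates its level in MT_30 and shows no stage effect that differs. Leaving it aside, 0 members were called. Among the fits without 1 library, 1 member was called higher without MT_4, 2 lower without JN_7 and 1 lower without JN_9.

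Members found in all libraries of a lone group and at 0 elsewhere were rare. They numbered 7 for MT_30, 3 for JN_40, 1 for JN_30 and 1 for MT_40, against 10, 6, 1 and 2 over the whole table. MSTRG.15164.1 on chromosome 14 had 0.0814, 0.506 and 0.317 FPKM in MT_30, MSTRG.22055.1 on chromosome 17 had 0.0430, 0.347 and 0.0514 in JN_40, MSTRG.3839.1 on chromosome 10 had 0.121, 0.0156 and 0.0133 in JN_30, and MSTRG.48960.1 on chromosome 8 had 0.171, 0.0288 and 0.1496 in MT_40. These 4 rested on 0.3 to 2.2 estimated reads per library on average and did not pass the filter for testing.

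No member was found in all 6 libraries of a material and in none of the other, nor in all 6 libraries at 30 d and none at 40 d, by its listed FPKM. At 40 d alone, 3 members were found. MSTRG.3456.1 (chromosome 10, 28844780 to 28844992) had 0.385, 0.411 and 0.310 FPKM in JN_40 and 0.186, 0.575 and 0.484 in MT_40, and at 0 in every library at 30 d. The others were MSTRG.22045.1 on chromosome 17, between 0.0550 and 0.494 FPKM at 40 d, and MSTRG.403.1 on chromosome 1, between 0.0808 and 1.13. Over all lncRNAs listed, 1 was found in JN18 alone, 0 in MT72 alone, 3 at 30 d alone and 3 at 40 d alone.

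MSTRG.25385.1 (chromosome 18, 53577308 to 53577809) was high in JN_30 alone. It had 1.44, 1.02 and 0.697 FPKM there and between 0.0134 and 0.0309 in the other 9 libraries. JN_30 was thus far above the other groups, which overlapped each other. It passed the filter through JN_30 alone. The log2 difference was -3.17 for MT_30 minus JN_30 and -0.06 for MT_40 minus JN_40 (standard error 0.41 for each).

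Where neighbours in a run were called in the same comparison, they moved the same way. For the averaged stage difference this held in all 3 runs with more than 1 called member, and for the averaged material difference in the only such run. The run on chromosome 18 counts among the 3 only through MSTRG.23752.1, whose direction was fixed by the filter. These runs were named after their values were seen. On chromosome 13, MSTRG.11459.1 and MSTRG.11460.1 (27458083 to 27459848) rose by 2.41 and 2.45 on the log2 scale from 30 to 40 d (adjusted p = 0.015 and 0.00306 by limma). MSTRG.11460.1 was at 0 in MT_30, at 1.63, 1.11 and 0.848 FPKM in MT_40, at 0.0935, 0.205 and 0 in JN_30 and at 0.626, 0.208 and 0.253 in JN_40. On chromosome 18, MSTRG.23751.1 and MSTRG.23752.1 (6863454 to 6865897) had log2 differences of 2.81 and 2.60. The first was called (adjusted p = 0.00254 by limma), and the second passed the filter only through libraries at 40 d.

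On chromosome 1, MSTRG.1430.1 and MSTRG.1431.1 (49095386 to 49096586) were both higher in MT72. MSTRG.1430.1 had 4.73, 5.57 and 8.81 FPKM in MT_30, 4.11, 3.90 and 4.03 in MT_40, 1.19, 2.77 and 1.02 in JN_30 and 1.86, 1.56 and 2.33 in JN_40. Every library of MT72 was above every library of JN18. MSTRG.1431.1 was lower in level, with 1.03, 2.59 and 4.24 FPKM in MT_30 and 0.438, 0.834 and 1.03 in MT_40, and at most 0.417 in JN18. The averaged log2 fold changes by limma were 1.5 (standard error 0.26, adjusted p = 0.0152) and 2.91 (standard error 0.48, adjusted p = 0.0101).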

How the data were processed

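RNA of pods was sequenced in 12 libraries, 3 for each material (MT72, JN18) and stage (30 d, 40 d). The authors trimmed reads with Cutadapt, mapped them (HISAT2 in the methods, TopHat2 in the submitters' processing notes), and assembled and quantified transcripts with StringTie. The deposited FPKM values are scaled by length and library. The coverage signal, deposited without normalization, is the mean coverage per base. The CPC score and the CNCI score were computed by the authors, who removed coding transcripts. The genome build was not found in the labels or methods. No column belonged to other samples (0).

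The ratio of coverage to FPKM gave the aligned bases, and coverage times length over 150 bases the estimated reads. Levels were compared with limma 3.58.1 in R 4.3.3, with a trend in the prior variance, on log2 values with 0.1 added to each FPKM. The fit held the 9142 lncRNAs that passed 0.1 FPKM in 3 or more libraries. All 4 groups stood in 1 fit, and p-values were adjusted by the Benjamini-Hochberg method over all of them. A count test was not used, since FPKM values are not counts. A fold change near the pseudocount depends on it. The fit was tested on simulated data. Alternatives were other pseudocounts, filters and scaling, voom on estimated reads, array weights, fewer groups, a replicate block and leaving out each library. Descriptions used Python 3.11.15 with pandas 2.3.3.

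Members and gene lists were chosen with earlier results of these data known. Named were the 8 highest members, up to 4 per direction and comparison with the largest change among calls without overlap and with at least 0.5 FPKM in the higher arm, up to 3 with a different stage effect, the top 2 of a lone group and 3 of a lone material or stage, the 3 steadiest, the 2 longest runs and those next to the limits. Others are marked in the text. Sequences were not analysed here.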

Additional observations from a re-analysis of the deposited data

Results flagged for a closer look

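MSTRG.51380.1 was picked out by the test of a different change from 30 to 40 d in the materials, with a fitted difference of -4.54 on the log2 scale of FPKM plus 0.1 (-7.80 to -1.73 over the alternatives). It was above 0 in the 3 libraries of MT_30 alone and passed the filter through them. In JN18 all 6 libraries were at 0, so there was no stage change to compare. The call was lost in 11 of the 16 alternatives that still tested the member. The value is therefore a description of the level in MT_30.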

How the results depend on the processing

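The counts of called members moved with the processing, and the cause was not tested. In the order stage within JN18, material at 30 d, material at 40 d, stage within MT72, stage averaged, material averaged and different stage effect, the counts were 6, 34, 4, 54, 93, 36 and 1. When each library was left out in turn they ran from 0 to 23, 7 to 55, 1 to 10, 15 to 112, 46 to 180, 19 to 49 and 0 to 2. With a pseudocount of 0.01 they were 1 for stage within JN18, 12 for material at 30 d, 35 for stage within MT72 and 0 for a different stage effect (162 at the unadjusted thresholds). With a pseudocount of 1 they were 1 for stage within JN18 and 2 for a different stage effect. With a filter at 0.5 FPKM, which left 1008 members, they were 2, 21 and 2 for the first 3 comparisons and 0 for a different stage effect (94 unadjusted). By voom on estimated reads they were 18 for material at 30 d, 2 for material at 40 d and 0 for a different stage effect (167 unadjusted). With array weights they were 1 for stage within JN18, 11 for material at 40 d and 209 for stage within MT72. With only the groups compared in the fit they were 0 (160 unadjusted), 13, 2 and 169 for the 4 group comparisons. All other counts under these settings, without a filter and with rescaled FPKM stayed within 1.5 times those reported.

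The replicate numbers in the library names were not taken to pair libraries, since they are not said to mark a shared plant, plot or day. Deviations of same-numbered libraries from their group means had correlations of -0.16 to 0.01, which cannot show whether such a pairing existed. With a replicate block the counts were 15 for material at 30 d, 1 for material at 40 d and 21 for the averaged material difference. On average 1495.9 members per library were above 0.1 FPKM, fewer than were above 0. Of the 37 calls of named members, 17 were kept in every alternative that still tested the member, 20 were lost in at least 1, and 0 changed direction. Alternatives in which a member no longer passed the filter were not counted. The 17 include MSTRG.51380.1 within MT72 and MSTRG.4334.1 for the averaged stage, which passed the filter only through their higher side.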
